A study of Mus musculus with 24 samples.

Results

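The small leucine-rich proteoglycans are a family of secreted matrix proteins, and 10 of their genes were followed here in sorted tumour cells: Ogn, Aspn, Dcn, Lum, Fmod, Bgn, Prelp, Omd, Kera and Podn. They were taken by symbol, without regard to case, and all 10 were found among the 24034 symbols that the study's 3 count tables share. The family was chosen by the gate differences of Ogn, Aspn and Dcn, which were among the top rises in p27K high cells in these data. The differences of these 3 are therefore given as a description without a p-value, while the 7 others are in the set by name.

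The study sequenced bulk RNA from tumours of the mouse lines 4T07, D2A1 and EMT6, all transduced with mCherry and with mVenus-p27K. In this reporter mVenus is joined to a form of p27, the cell cycle inhibitor encoded by Cdkn1b, and the fluorescence rises in resting cells. All Balb/cJ mice received 250000 transduced cells in the mammary fat pad, with harvest on day 14, and the labels name no drug and no further genetic change in any group. The digested tumours were stained for CD45 and DAPI and sorted into p27K high cells, which the labels call quiescent, and p27K negative cells, which they call proliferative, giving both gates from each of 4 tumours per line and 24 libraries in all. Each line was sequenced in a run of its own, so line and run cannot be told apart. The 4T07 counts had 24982 entries and those of D2A1 and EMT6 49316 each, so the gene sets counted may differ too. The cells that CD45 and DAPI staining kept or removed, and the gate settings, are not stated in the labels.

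Members of this family share a core of leucine-rich repeats that binds collagen fibrils and steers how they assemble. Many also carry chondroitin, dermatan or keratan sulfate chains, and several bind growth factors of the TGF-beta group or receptors at the cell surface. In a solid tumour they are known mainly as products of fibroblasts and other matrix-making cells.

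Library totals were 27887221 to 45460880 reads in 4T07, 13769682 to 20142013 in EMT6 and 1335433 to 20174767 in D2A1, where 3 of the p27K negative libraries held only 1335433, 2110563 and 1802042 reads. As a check of the gates, Mki67, a marker of cycling cells, was lower in the p27K high library of all 12 tumours. Cdkn1b was higher in all 12. The reporter holds a form of p27, and whether its RNA was counted as Cdkn1b is not known. Cdkn1b is therefore not an independent check. The log2 differences were 0.89, 0.46 and 0.54 for Cdkn1b and -6.52, -5.92 and -5.31 for Mki67 in 4T07, D2A1 and EMT6. All levels are CPM, the count of a gene scaled to library size within a line, and log2 differences are p27K high minus p27K negative within tumours, with their standard error (SE) over 4 tumours.

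The family's RNA came from different genes in the sorted cells of each line. The scale is CPM divided by the length of a gene's annotated exons in kilobases. In 4T07, Dcn made up 90.1% ± 3.80 (SD, n = 4) of the summed CPM per kilobase of the 10 genes in p27K negative cells and 89.0% ± 1.60 in p27K high cells. In EMT6, Ogn held 93.4% ± 1.36 and 93.4% ± 2.58 of that sum. D2A1 cells had no such leading gene: in the p27K negative gate Ogn held 25.3% ± 7.28, Dcn 21.8% ± 6.62, Aspn 17.6% ± 7.42, Bgn 14.3% ± 6.02 and Omd 13.5% ± 5.10. That order depends on the division by exon length. In plain CPM the D2A1 negative means were 46.5 for Dcn, 30.0 for Bgn, 23.8 for Ogn, 16.4 for Aspn and 11.2 for Omd. In p27K high D2A1 cells the shares of Aspn and Ogn were 37.8% ± 9.53 and 32.0% ± 3.78, and those of Dcn and Bgn were 6.25% ± 1.93 and 2.37% ± 0.678.

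**Figure D1:**
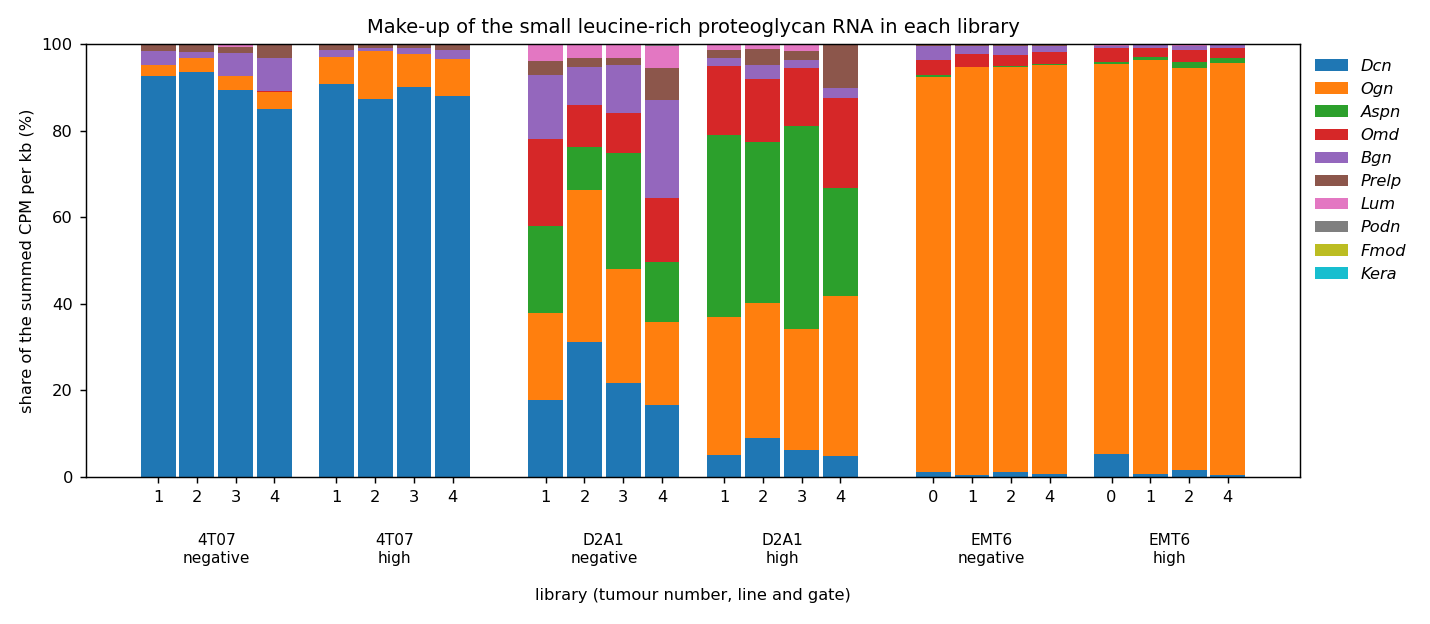
Stacked bars show, for each of the 24 libraries, the share (percent) of each of the 10 genes in the family's summed CPM per kilobase, by line, gate and tumour number. Dcn fills most of each 4T07 bar and Ogn most of each EMT6 bar, whereas D2A1 bars are divided among Ogn, Aspn, Dcn, Omd and Bgn.

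The summed level of the 10 genes was higher in the p27K high library of all 12 tumours. It went from 50.2 ± 17.3 to 220.3 ± 81.6 CPM per kilobase in 4T07, from 36.6 ± 12.4 to 128 ± 52.8 in D2A1 and from 182 ± 51.6 to 432 ± 111 in EMT6 (mean ± SD, n = 4 tumours). The fold within a tumour was 3.74 to 4.94 in 4T07, 2.30 to 4.66 in D2A1 and 2.30 to 2.51 in EMT6. Dcn carries this sum in 4T07 and Ogn in EMT6, so it is a description and no test was made of it. In bulk samples such as these, fewer cells of a type and less RNA per cell cannot be told apart.

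Low counts limited which genes could be tested. After edgeR's filter on low counts, Ogn, Dcn, Bgn and Prelp were tested in 4T07, and these 4 with Aspn, Lum and Omd in D2A1 and EMT6. Fmod, Kera and Podn passed in no line. In 4T07, 4 of the 4 tested members rose at an adjusted p under 0.05, where 45.7% of 12849 genes were called, 22.1% upward and 23.6% downward. In D2A1, 4 of 7 rose and 1 fell, where 29.5% of 12845 genes were called, 14.9% upward and 14.7% downward. In EMT6, 5 of 7 rose and none fell, where 49.2% of 13354 genes were called, 24.1% upward and 25.1% downward. These counts include the 3 genes that led to the choice of the family, and the filter favours genes that are high in at least 1 gate, so nothing is read from them about the family as a whole. The D2A1 negative values rest on few reads, with 5 to 88 per library for Prelp, 15 to 111 for Omd, 16 to 106 for Aspn, 37 to 454 for Bgn and 5 to 41 for Lum.

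**Figure D2:**
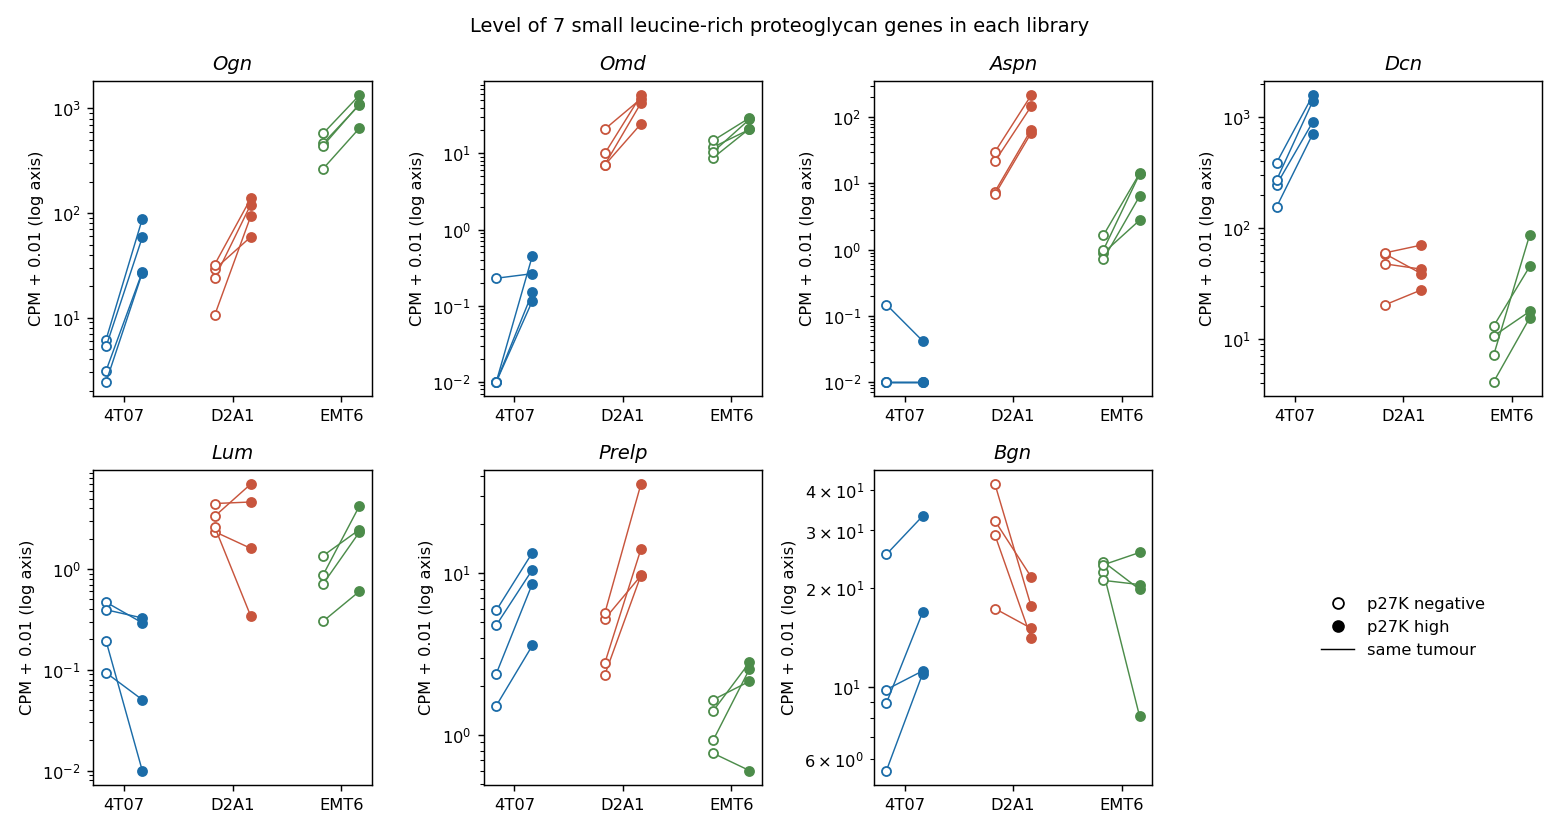
Each panel gives the level of 1 gene in every library as CPM + 0.01 on a log axis, with open circles for p27K negative, filled circles for p27K high and a line joining the libraries of a tumour. Ogn is higher in the p27K high library of all 12 pairs, while Dcn is near level in D2A1 and Bgn slopes up in 4T07 and down in D2A1.

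Ogn, which encodes osteoglycin, a small keratan sulfate proteoglycan of bone, cornea and vessel walls, was higher in the p27K high gate of 12 of 12 tumours. In 4T07 its level was 3.11, 6.17, 2.42 and 5.30 CPM in the p27K negative libraries of tumours 1 to 4 and 27.3, 87.6, 26.8 and 58.5 CPM in the p27K high ones. In D2A1 the values were 23.8, 29.0, 32.1 and 10.5 CPM in the negative gate and 121, 59.2, 138 and 93.5 CPM in the high gate. EMT6 tumours, listed under the column numbers 0, 1, 2 and 4, had 266, 463, 440.3 and 577 CPM in the negative gate and 646, 1079.5, 1097 and 1334 CPM in the high gate. The gates did not overlap in any line, and every EMT6 negative value was above every high value of the other lines, although each line was scaled separately. The difference was 3.48 ± 0.14 in 4T07, rank 3 of 12849 genes from the top, 2.23 ± 0.26 in D2A1 and 1.26 ± 0.04 in EMT6. Within tumours the fold spanned 8.77 to 14.2 in 4T07, 2.04 to 8.91 in D2A1 and 2.31 to 2.49 in EMT6.

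Omd encodes osteomodulin, a keratan sulfate proteoglycan of mineralised tissue, and lies next to Ogn on the chromosome. It rose in both lines in which it was tested. In D2A1 it stood at 20.8, 7.02, 9.96 and 7.11 CPM in the negative gate and 52.1, 24.4, 57.8 and 45.9 CPM in the high gate, a difference of 2.19 ± 0.22 (edgeR adjusted p = 7.37e-06). In EMT6 it stood at 8.78, 12.1, 10.5 and 14.8 CPM against 21.1, 20.6, 28.0 and 29.2 CPM, a difference of 1.11 ± 0.11 (edgeR adjusted p = 3.52e-05). Neither line showed overlap between the gates. In 4T07 Omd was close to absent, with 8 reads over the 4 negative libraries and 28 over the 4 high ones, and it was not tested there. Averaged over the lines the difference was 1.78 ± 0.27 (edgeR adjusted p = 3.23e-05), where 52.4% of 13578 genes were called and 28.3% upward. This average includes the near-empty 4T07 libraries, and without tumour 4 of 4T07, whose negative library held all 8 negative-gate reads, it was 2.86 (edgeR adjusted p = 9.10e-06).

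Aspn, which encodes asporin, a relative of decorin that carries a stretch of aspartate and binds TGF-beta and collagen, was a gene of D2A1 and EMT6. In D2A1 it was at 21.5, 7.49, 29.9 and 6.79 CPM in the negative gate and at 146, 64.8, 214 and 57.6 CPM in the high gate, a difference of 2.95 ± 0.14. In EMT6 it was at 0.878, 0.704, 0.979 and 1.64 CPM in the negative gate and at 2.77, 6.41, 13.9 and 14.1 CPM in the high gate, a difference of 3.06 ± 0.27, the highest of 13354 genes. The gates did not overlap in either line, although tumour 0 of EMT6, at 3.15-fold, was well under the other 3 tumours of that line. In 4T07 Aspn had no read in 3 of 4 libraries of each gate, with 5 reads in all in the negative gate and 1 in the high gate, so no fold is given.

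The genes Aspn, Omd and Ogn lie in this order on the plus strand of chromosome 13, after Ecm2, a more distant relative of the family. All 4 sit inside Cenpp, a centromere protein gene that runs the other way on the minus strand over chr13:49464023-49652785 (GRCm38, the assembly named mm10, GENCODE vM21). Aspn spans chr13:49544443-49567565, Omd chr13:49582462-49592822 and Ogn chr13:49608046-49624501. Of the exons of Aspn, only 7 bases coincide with an exon of Cenpp, and those of Omd and Ogn share none. Because it is not known whether the counts used strand, reads of these genes and of Cenpp's introns may have been mixed to some degree.

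Across this block the nested genes and their host moved in opposite directions. Cenpp fell in all 3 lines, with log2 differences of -3.87 ± 0.35 in 4T07 (edgeR adjusted p = 0.000155), -2.26 ± 0.32 in D2A1 (edgeR adjusted p = 0.000141) and -2.09 ± 0.15 in EMT6 (edgeR adjusted p = 4.07e-06). Ecm2 rose by 1.49 ± 0.30 in 4T07 (edgeR adjusted p = 0.00631) and by 1.60 ± 0.25 in EMT6 (edgeR adjusted p = 0.000645), and was too low to test in D2A1. The neighbours on one side, Bicd2 and Ippk, were between -0.27 and 0.38 in the 3 lines and passed the test in none. Ippk overlaps the end of Cenpp and shares 315 exonic bases with it on the opposite strand, so their reads may also have been mixed. On the other side, Nol8 and Iars fell in D2A1 (-0.57 and -0.58) and in EMT6 (-0.27 and -0.37), and did not pass in 4T07 (0.25 and 0.14).

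**Figure D3:**
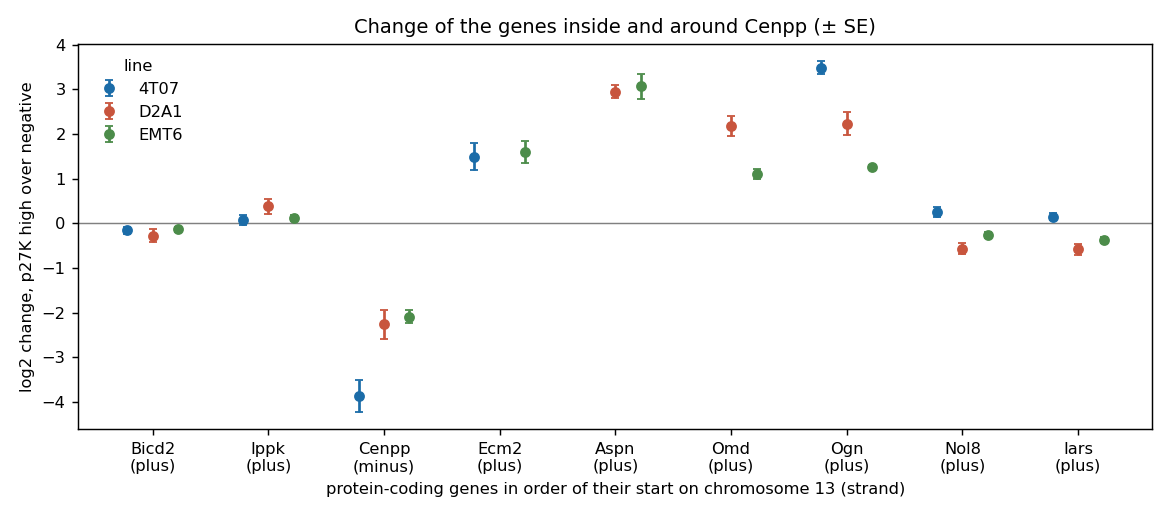
Points give the log2 difference between gates (± SE, 4 tumours) for the protein-coding genes in order of their start on chromosome 13, with strand under each name and one colour per line. Cenpp lies between -3.87 and -2.09, the nested Ecm2, Aspn, Omd and Ogn lie above 1 where tested, and the flanking genes lie between -0.58 and 0.38.

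The 250 bases before the start sites of these 3 neighbours are shown because the genes lie side by side and were higher in the same gate in D2A1 and EMT6. They are RefSeq sequences of GRCm38.p6, plus strand, written 5′ to 3′, at chr13:49607765-49608014 for Ogn, chr13:49582212-49582461 for Omd and chr13:49544193-49544442 for Aspn. Capitals mark every match, on either strand, to the letters searched for a set of 6 motifs. The TATA box was searched as TATAAA. The site of AP-1 factors, which answer growth signals, was searched as TGANTCA. The site of TEAD factors, which act in the Hippo pathway, was searched as GGAATG. The site of FOXO factors, which are active in resting cells, was searched as GTAAACA. The core of the hypoxia response element was searched as ACGTG. The CHR element, found in promoters of cell cycle genes, was searched as TTTGAA.
Ogn: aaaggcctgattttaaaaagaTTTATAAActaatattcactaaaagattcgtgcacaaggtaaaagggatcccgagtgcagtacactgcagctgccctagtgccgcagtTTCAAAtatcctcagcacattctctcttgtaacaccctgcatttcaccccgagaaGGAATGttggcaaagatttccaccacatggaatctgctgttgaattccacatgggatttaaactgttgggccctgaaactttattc
Omd: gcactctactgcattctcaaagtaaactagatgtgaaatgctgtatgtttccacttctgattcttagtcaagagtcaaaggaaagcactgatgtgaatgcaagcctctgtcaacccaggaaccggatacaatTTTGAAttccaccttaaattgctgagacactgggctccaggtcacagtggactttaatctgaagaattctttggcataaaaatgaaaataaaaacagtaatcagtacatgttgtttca
Aspn: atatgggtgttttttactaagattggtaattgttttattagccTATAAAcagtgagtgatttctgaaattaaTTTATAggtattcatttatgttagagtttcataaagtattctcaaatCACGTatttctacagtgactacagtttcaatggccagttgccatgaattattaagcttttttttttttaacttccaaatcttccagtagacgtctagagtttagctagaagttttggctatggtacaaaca
The Ogn window held 2 overlapping matches to the TATA box motif, beginning 229 and 227 bases before the start, and 1 match each to the TEAD motif at 86 and the CHR motif at 141 bases. The Omd window held a CHR match at 118 bases, and the Aspn window 2 TATA box matches at 207 and 178 bases and a hypoxia response match at 131 bases. Of 32851 RefSeq promoter windows of this length, 12.4% held the TATA box letters, 12.6% the TEAD letters, 16.0% the CHR letters and 16.6% the hypoxia response letters. The AP-1 and FOXO letters, found in 6.75% and 3.17% of all windows, were in none of the 3. No motif was common to the 3 windows, and these matches only describe the letters. RefSeq entries were matched for 8 of the 10 genes, the others being Dcn and Lum.

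Dcn encodes decorin, which coats collagen fibrils and binds TGF-beta and several receptor tyrosine kinases. It differed most plainly in 4T07, where it was at 245, 388, 155 and 271 CPM in the negative gate and at 901, 1566, 704 and 1386 CPM in the high gate. In D2A1 it was at 47.5, 58.5, 59.8 and 20.4 CPM against 42.6, 38.8, 70.2 and 27.7 CPM. In EMT6 it was at 7.14, 4.11, 13.1 and 10.6 CPM against 87.2, 15.5, 45.1 and 17.8 CPM. The gates were apart in 4T07 and EMT6 and overlapped in D2A1, where the high library was above the negative one in 2 of 4 tumours. The difference was 2.11 ± 0.10 in 4T07, 0.00 ± 0.17 in D2A1 and 2.04 ± 0.36 in EMT6. The EMT6 tumours ranged from 1.67-fold to 12.2-fold, and without tumour 0 the difference there was 1.46.

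Lum, which encodes lumican, a keratan sulfate proteoglycan that spaces collagen fibrils in the cornea and skin, lies on chromosome 10 close to Dcn. It rose in EMT6, from 0.702, 0.293, 0.864 and 1.34 CPM to 2.31, 0.589, 4.19 and 2.45 CPM, a difference of 1.53 ± 0.29 (edgeR adjusted p = 0.00212). All 4 EMT6 tumours were higher in the high gate, but the gates overlapped. In D2A1 the negative libraries were at 4.45, 2.34, 3.32 and 2.62 CPM and the high libraries at 4.62, 1.59, 6.96 and 0.330 CPM. That difference, -0.62 ± 0.53 (edgeR adjusted p = 0.423), did not pass the test, and the sign was 0.26 without tumour 4, whose high library held 6 reads of Lum. In 4T07 Lum had 37 reads over the negative and 19 over the high libraries and was not tested.

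Prelp encodes a member that anchors basement membranes to the underlying collagen. It rose in 4T07, from 2.38, 4.75, 1.51 and 5.87 CPM to 8.61, 10.5, 3.57 and 13.4 CPM, a difference of 1.35 ± 0.18 (edgeR adjusted p = 0.000903). It rose in D2A1, from 5.20, 2.34, 2.77 and 5.63 CPM to 9.63, 9.68, 14.1 and 35.5 CPM, a difference of 2.27 ± 0.28 (edgeR adjusted p = 5.33e-05). In EMT6 it went from 0.761, 1.64, 0.922 and 1.40 CPM to 0.593, 2.14, 2.54 and 2.80 CPM, a difference of 0.73 ± 0.29 that did not pass (edgeR adjusted p = 0.0639). Every 4T07 and D2A1 tumour was higher in the high gate, the gates overlapped in 4T07 and not in D2A1, and tumour 0 of EMT6 went the other way. Without that tumour the EMT6 difference was 0.93 (edgeR adjusted p = 0.00795), without tumour 2 it was 0.46 (edgeR adjusted p = 0.312) and without tumour 4 it was 0.62 (edgeR adjusted p = 0.216). Without pairing by tumour the 4T07 difference was 1.31 (edgeR adjusted p = 0.0541). Averaged over lines Prelp rose by 1.49 ± 0.16 (edgeR adjusted p = 4.62e-07). Prelp shares 350 exonic bases with the antisense gene Gm15851, whose reads cannot be told from its own if strand was not used.

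Bgn encodes biglycan, the closest relative of decorin, which binds collagen and signals through Toll-like receptors when released from the matrix. In 4T07 it was at 8.91, 5.53, 9.79 and 25.4 CPM in the negative gate and at 16.8, 10.9, 11.2 and 33.2 CPM in the high gate. In D2A1 it was at 41.6, 17.3, 32.1 and 29.1 CPM against 17.6, 15.1, 21.6 and 14.1 CPM. In EMT6 it was at 22.4, 24.1, 23.6 and 21.1 CPM against 8.10, 19.8, 25.7 and 20.5 CPM. Bgn was higher in the high gate in 4 of 4 tumours of 4T07, lower in 4 of 4 of D2A1 and lower in 3 of 4 of EMT6, with overlap between gates in each line. It rose by 0.61 ± 0.16 in 4T07 (edgeR adjusted p = 0.0169) and fell in D2A1 (-0.80 ± 0.18, edgeR adjusted p = 0.00535), while in EMT6 the difference of -0.35 ± 0.21 did not pass (edgeR adjusted p = 0.184). Both calls were lost with a tumour left out, with the sign kept. In 4T07 the difference was 0.51 without tumour 1 (edgeR adjusted p = 0.0927). In D2A1 it was -0.65 without tumour 1 (edgeR adjusted p = 0.0546) and -0.70 without tumour 4 (edgeR adjusted p = 0.0519). Calls over all genes fell in these fits too, from 5868 to 3698 in 4T07 and from 3794 to 2444 and 2534 in D2A1. Without pairing by tumour the 4T07 difference was 0.54 (edgeR adjusted p = 0.422). In EMT6 the difference was -0.054 without tumour 0 (edgeR adjusted p = 0.616) and -0.54 without tumour 2 (edgeR adjusted p = 0.117). In D2A1 with all libraries thinned to the shallowest, the difference was -0.63 (edgeR adjusted p = 0.0651).

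Fmod, Kera and Podn stayed at or near the detection limit. Kera, the keratocan gene of the cornea, had no read in 22 of 24 libraries, with 6 reads in 1 high library of 4T07 and 1 read in 1 high library of D2A1. Fmod, which encodes fibromodulin, had 0 to 5 reads per library. Podn, which encodes podocan, had 0 to 11 reads, and was highest in D2A1 at 0.612 ± 0.358 CPM in the high gate and 0.319 ± 0.247 CPM in the negative gate. Podn was higher in the high gate in 4 of 4 tumours of D2A1, with overlap, and in 4 of 4 of EMT6, without overlap, on 4 to 5 reads per high and 1 to 3 per negative EMT6 library (0.281 ± 0.0699 and 0.117 ± 0.0482 CPM). None of these 3 genes passed the filter on low counts in any line, so none was tested with it.

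**Figure D4:**
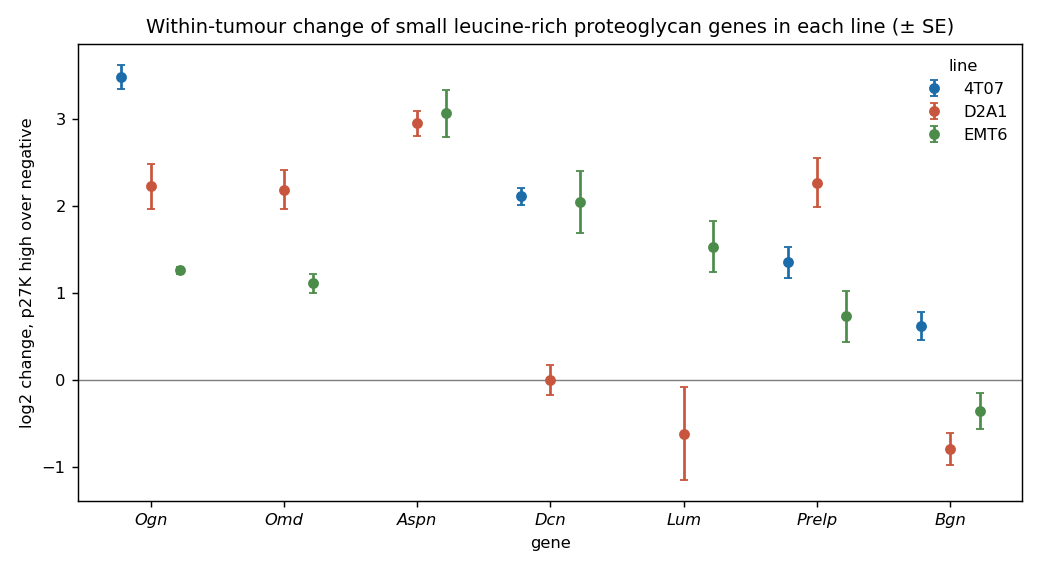
Points give the log2 difference between gates (p27K high over negative, ± SE over 4 tumours) for the 7 genes that passed the filter in at least 1 line, with one colour per line. Ogn, Omd and Aspn lie above 1 wherever tested, and Bgn lies above 0 in 4T07 and under 0 in D2A1 and EMT6.

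The differences themselves were compared across lines in a joint fit of the 24 libraries, in which 24.5% of 13578 genes differed. Of the 4 members tested there besides Ogn, Aspn and Dcn, Bgn (edgeR adjusted p = 0.00906) and Prelp (edgeR adjusted p = 0.0329) differed between lines, while Lum (0.0524) and Omd (0.0549) did not pass. The difference of Bgn in 4T07 was above that in D2A1 by 1.39 and above that in EMT6 by 1.01 on the log2 scale. For Prelp the 4T07 value was under that of D2A1 by 0.95 and above that of EMT6 by 0.63. The call for Prelp did not hold with some tumours left out. The edgeR adjusted p was 0.206 without tumour 4 of D2A1, 0.0522 without tumour 2, 0.0521 without tumour 3, and 0.0846 without tumour 1 of EMT6. That call was also lost with DESeq2 on all tumours (adjusted p = 0.0650). Both calls needed the pairing, with edgeR adjusted p of 0.234 for Bgn and 0.501 for Prelp without it. For Ogn, 4T07 was above D2A1 by 1.21 and above EMT6 by 2.25. For Dcn, 4T07 was above D2A1 by 2.07 and above EMT6 by 0.11.

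The order of the levels within a cell population also differed by line, on the scale of CPM per kilobase (mean ± SD, n = 4). In 4T07 negative cells Dcn, at 45.3 ± 16.4, was followed by Bgn at 2.03 ± 1.45, Ogn at 1.66 ± 0.691 and Prelp at 1.00 ± 0.562, and these last 3 were within each other's spread. In 4T07 high cells Dcn at 195 ± 69.2 was followed by Ogn at 19.5 ± 11.3, then by Bgn at 2.96 ± 1.72 and Prelp at 2.49 ± 1.14, which were within each other's spread. The 4T07 order thus had Ogn at rank 3 in the negative and rank 2 in the high gate.

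In D2A1 negative cells the first 5, Ogn at 9.29 ± 3.72, Dcn at 7.97 ± 3.13, Aspn at 6.98 ± 4.78, Omd at 4.99 ± 2.90 and Bgn at 4.92 ± 1.64, each lay within the spread of the next. In plain CPM Dcn and Bgn came first there, with means of 46.5 and 30.0, and Ogn followed at 23.8. In D2A1 high cells Aspn at 51.2 ± 31.4 and Ogn at 40.1 ± 13.4 did not differ beyond their spread, and Omd at 20.0 ± 6.50 and Dcn at 7.68 ± 3.09 came next. In EMT6, Ogn at 170.0 ± 50.1 in negative and 405 ± 112 in high cells stood far above Omd at 5.13 ± 1.14 and 11.0 ± 2.01. Aspn, at 0.446 ± 0.173 in EMT6 negative cells, was at rank 5 there and at rank 4 in the high cells. These ranks too hold only per kilobase. In plain CPM Bgn (22.8) stood above Omd (11.5) in EMT6 negative cells, and Dcn (41.4) above Omd (24.7) in high cells.

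Markers of other cells that a tumour sort could hold were read beside these results. Of all genes, 22.1%, 14.9% and 24.1% rose and 23.6%, 14.7% and 25.1% fell in 4T07, D2A1 and EMT6. In 4T07, 4 of 14 tested fibroblast markers rose and 3 fell, which is near those shares. Their median difference was -0.76 where the median of all genes was 0.00. The receptor genes Pdgfra (1.16) and Pdgfrb (0.66), with Pi16 (0.66) and Clec3b (4.64), rose, and Thy1 (-1.49), Pdpn (-2.14) and the smooth muscle actin gene Acta2 (-1.51) fell. In D2A1, 4 of 13 rose and 8 fell (median -1.38, all genes 0.02), among them Thy1 (-5.00), Pdpn (-3.92), Col1a1 (-1.38) and Col1a2 (-3.88), while Pdgfra (1.07) and Pdgfrb (1.14) rose. In EMT6, 6 of 10 rose and none fell (median 0.42, all genes 0.02).

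The summed CPM of the 16 fibroblast markers was 443 to 524 in negative and 829 to 997 in high libraries of 4T07, mostly from Pdgfra. It was 823 to 1079 and 959 to 1189 in D2A1, and 6049 to 8473 and 7814 to 10664 in EMT6, where Col1a2 alone was at 3874 CPM in the negative and 4773 CPM in the high gate on average. Tcf21 had no read in the high libraries of 4T07 and D2A1. Macrophage markers fell in 4T07, 10 of 10, from 381 to 959 CPM in sum to 78.3 to 96.2 CPM, and 4 of 6 endothelial markers fell there as well, from 9.39 to 17.5 CPM to 1.86 to 5.77 CPM. Neutrophil markers (3 of 5) and leukocyte markers (2 of 3) fell in 4T07 too, from 57.9 to 71.4 CPM to 18.1 to 55.7 CPM and from 21.2 to 41.4 CPM to 5.40 to 12.9 CPM. In D2A1, 2 of 3 tested endothelial markers fell (median -2.37), from 14.0 to 31.2 CPM to 2.08 to 10.6 CPM. The 1 neutrophil marker tested rose in D2A1 and in EMT6. None of 7 tested macrophage markers was called in D2A1, and 2 rose and 1 fell of 5 in EMT6. Pericyte markers, 8 in all, summed to 30.0 to 32.6 CPM in negative and 18.4 to 28.6 CPM in high libraries of 4T07, 9.54 to 23.0 and 4.95 to 8.95 in D2A1, and 4.61 to 7.54 and 6.44 to 10.2 in EMT6. The part of other cell types in the differences of Ogn, Aspn, Dcn and their relatives was not tested.

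**Figure D5:**
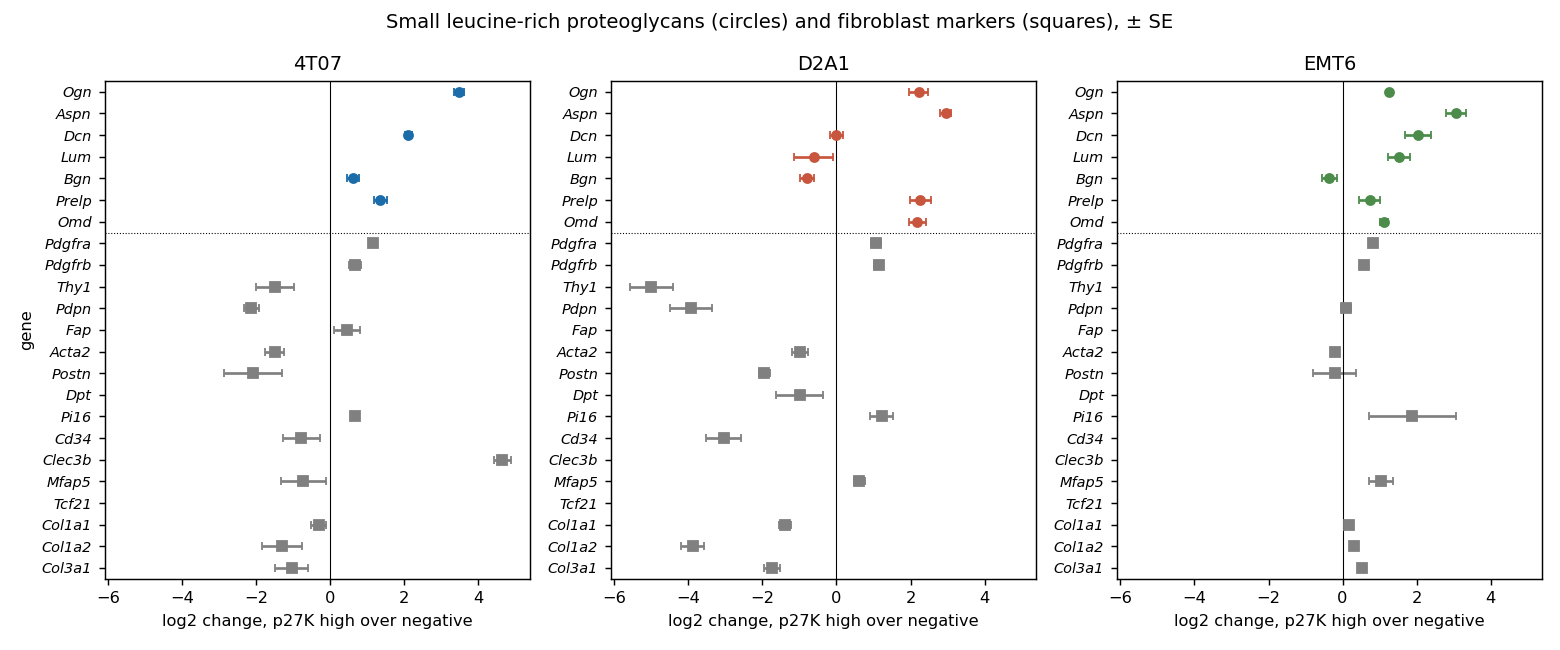
Each panel gives 1 line, with the log2 difference between gates (± SE, 4 tumours) for the family as circles and for 16 fibroblast markers as squares, and a gap where a gene was too low to test. In D2A1 the circles of Ogn, Aspn, Prelp and Omd lie above 2 and the squares of Thy1, Pdpn and Col1a2 under -3.

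Other genes of the family's biology were described by list. Of 8 further relatives, 4 were tested in 4T07, where Ecm2, Tsku (0.35) and Chadl (1.35) rose and Podnl1 (-0.85) fell, and 5 in EMT6, where Ecm2, Tsku (0.34) and Chad (1.05) rose. Neither of the 2 tested in D2A1, Tsku (0.34) and Podnl1 (0.15), passed. The 4T07 call of Tsku was lost without the pairing, with scaling by totals and without tumour 1, 3 or 4 (edgeR adjusted p up to 0.174). Chadl, Chad and Podnl1 were named after their values were seen.

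Of the enzymes that build the chondroitin and dermatan sulfate chains of Dcn and Bgn, 5 rose and 5 fell of 26 tested in 4T07, 3 rose and 1 fell of 24 in D2A1, and 8 rose and 5 fell of 23 in EMT6, with medians of -0.05, 0.17 and 0.10. The shares that rose were 19.2%, 12.5% and 34.8%, beside 22.1%, 14.9% and 24.1% of all genes, so those of 4T07 and D2A1 were near the background. Uxs1, which makes the xylose donor for the first sugar of the chain, fell in 4T07 (-0.38) and in EMT6 (-0.54) and was at -0.29 in D2A1 without passing. The sulfotransferase gene Chst12 rose by 0.73 in D2A1 and by 0.39 in EMT6 and was at 0.07 in 4T07 without passing. Of the keratan sulfate enzymes, 3 of 10 rose and 1 fell in 4T07, 4 of 9 rose in D2A1 and 5 of 10 rose in EMT6, among them B4galt1 at 0.34, 0.44 and 0.49. St3gal1 rose by 0.53 in D2A1 and by 0.45 in EMT6 and was at 0.26 in 4T07 without passing. The call of B4galt1 was lost in 4T07 with scaling by totals and without tumour 1 or 3 (edgeR adjusted p up to 0.0771), and in D2A1 without tumour 1 or 2 (up to 0.0920). That of Uxs1 in 4T07 was lost without tumour 1 (edgeR adjusted p = 0.0511), and that of Chst12 in EMT6 without the pairing (edgeR adjusted p = 0.148). The EMT6 call of St3gal1 was lost without the pairing as well (edgeR adjusted p = 0.0717). In 4T07 St3gal1 passed with DESeq2 and without tumour 2.

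Genes of collagen fibrils and their assembly, the ligands of the family, were counted in the same way, with no test of a difference between lines. In 4T07, 3 rose and 4 fell of 22 tested, in D2A1 3 rose and 9 fell of 22, and in EMT6 12 rose and 3 fell of 22, with medians of -0.22, -0.32 and 0.22. Fn1, which encodes fibronectin, rose by 1.33, 1.05 and 0.84 in 4T07, D2A1 and EMT6, and Col5a2, a chain of the collagen that starts fibrils, fell, at -1.32, -5.97 and -1.51. The 4T07 call of Col5a2 was lost without the pairing and without tumour 1, 3 or 4 (edgeR adjusted p up to 0.155). Of proteases that cut these proteoglycans, 4 rose and 2 fell of 9 in 4T07, 5 of 10 rose in D2A1 and 7 of 10 in EMT6. The gelatinase gene Mmp2 rose by 2.10, 1.54 and 0.84 in these lines, and the aggrecanase gene Adamts4 by 0.76, 1.27 and 0.62.

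Receptors and growth factors bound by the family rose in 6 and fell in 6 of 16 cases in 4T07, rose in 6 and fell in 1 of 15 in D2A1 and rose in 10 and fell in 1 of 17 in EMT6. Tlr2, through which biglycan signals, rose by 0.57 in 4T07 and 0.99 in D2A1 and was at 0.05 in EMT6 without passing, and Kdr, an endothelial receptor, was tested only in 4T07, where it fell (-2.59). Other matrix and cell-surface proteoglycans rose in 5 and fell in 1 of 15 cases in 4T07, rose in 6 and fell in 1 of 12 in D2A1 and rose in 7 of 18 in EMT6. Tgfbr3, the TGF-beta co-receptor betaglycan, rose by 2.15, 1.63 and 0.67, and the syndecan gene Sdc2 by 1.07, 0.60 and 0.53. The counts of all these lists stand beside the 22.1%, 14.9% and 24.1% of all genes called upward and the 23.6%, 14.7% and 25.1% called downward in 4T07, D2A1 and EMT6.

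The genes most like the 3 leading ones were sought among 9651 genes by Pearson's r of the difference between gates over the 12 tumours. For Ogn they were Elp4 (r = 0.931), Dbt (0.927) and Zfp110 (0.923), for Aspn Ubash3b (0.946), Ermp1 (0.945) and Ttc12 (0.942), and for Dcn Idh1 (0.944), Cd47 (0.937) and Eln (0.917), the elastin gene. The 12 points share 3 lines, so these values follow differences between lines in large part and carry no test. Elp4, for example, was at 0.00, -0.33 and -0.57 in 4T07, D2A1 and EMT6, where Ogn was at 3.48, 2.23 and 1.26. Aspn had only 0 to 5 reads per library in 4T07, so its points for that line carry no measurable difference. Ubash3b, Ermp1 and Ttc12 were at -1.49, -1.26 and -4.84 in that line.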

How the data were processed

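Bulk RNA was measured in 24 libraries. The authors deposited whole-number gene counts, not normalized, in 3 tables, 1 per line. Per the labels' protocols, GENEWIZ generated these matrices. The submitters' processing notes name mm10 and DESeq2. For the aligner, counter, library kit and strand use, the entry is: not given in the sources used here. Entries with a blank name (176, at most 0.0109% of a library), a totals entry and 4 entries per table with a date for a symbol were left out.

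Each line was fitted with edgeR 4.0.16 (R 4.3.3, limma 3.58.1): quasi-likelihood test, TMM scaling, default filter on low counts and tumour as block. P-values were adjusted by Benjamini-Hochberg over all genes tested, with a threshold of 0.05. The SE is the log2 difference over the square root of F. A joint fit with 12 tumours as blocks gave the average of lines and the test of equal difference. P-values weigh the gate difference against the spread that remains after the block has taken out the level of each tumour. Exon lengths, taken over all annotated exons of a gene, and coordinates came from GENCODE vM21 for every line.

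The labels pair the gates of a tumour in 4T07 and D2A1. EMT6 columns carry the numbers 0, 1, 2 and 4, unlike the titles, and were paired by these. The correlation of the deviations of same-numbered libraries over 5000 genes was above 0.1 in every pair: r was 0.797, 0.695, 0.598 and 0.190 in 4T07, 0.116, 0.233, 0.113 and 0.316 in D2A1, and 0.630, 0.594, 0.812 and 0.648 in EMT6. All pairs were most alike within their own number except tumour 4 of 4T07, whose r with another tumour reached 0.357.

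The procedure was tested on simulated data. Apart from the change, a simulated gene had the same mean level in all libraries and no tumour effect. The true fold was the same in every tumour, and the spread was that estimated from the data. The recovery therefore does not show how the pairing by tumour performs. Genes changed by 2-fold were recovered in 76% of cases in 4T07 (12705 genes), 68% in D2A1 (12677) and 80% in EMT6 (13208), and by 4-fold in 96%, 94% and 97%. False calls were 5.49%, 4.14% and 8.76% of calls.

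The family and all gene lists were chosen with earlier results of these data known. All 10 members were named, with 2 genes per pathway list by smallest p in the average of lines, the 3 genes most like Ogn, Aspn and Dcn (log2 of CPM + 1, mean of at least 5 CPM), and neighbours on the chromosome. Marker genes named were chosen after their values were seen. Alternatives were no block, scaling by totals, DESeq2 1.42.0, no filter, a stricter filter (5 CPM in 4 libraries), each tumour left out and, added after seeing the data, thinning D2A1.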

Additional observations from a re-analysis of the deposited data

Results flagged for a closer look

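The difference of Bgn between p27K high and negative cells was not equal in the 3 lines (edgeR adjusted p = 0.00906): it rose in 4T07 (0.61 ± 0.16, higher in 4 of 4 tumours), fell in D2A1 (-0.80 ± 0.18, lower in 4 of 4) and was at -0.35 ± 0.21 in EMT6 (-0.054 without tumour 0). The difference of Prelp was not equal either (edgeR adjusted p = 0.0329), at 1.35 ± 0.18, 2.27 ± 0.28 and 0.73 ± 0.29, and it did not hold without tumour 4 of D2A1 (edgeR adjusted p = 0.206) or with DESeq2 (adjusted p = 0.0650). Line and sequencing run cannot be told apart in either case. The 4T07 counts also differed in their number of entries from those of D2A1 and EMT6, which had the same number. Among the 40 groups of 4 libraries examined for a value far from its group, none was past Dixon's 95% limit, which chance passes about 1 time in 20. Prelp in the p27K high library of D2A1 tumour 4 was only just under it, at 35.5 CPM beside 9.63, 9.68 and 14.1 CPM.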

How the results depend on the processing

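Of 282 differences of the family's genes recomputed under the alternatives, 9 reversed, 6 were no longer past the threshold, 3 became so and 1 moved by more than its spread. The other 263 did none of these, except that Dcn in D2A1, which was 0.00 as reported, changed sign under 4 alternatives and ranged from -0.19 to 0.19. Without the replicate block, 2 of 4 members were called in 4T07, as Bgn (0.54) and Prelp (1.31) were lost, and 2 differed between lines. Without the filter on low counts, 7 of 10 differed between lines and Bgn and Prelp were called in EMT6. The stricter filter left 3 called members in EMT6, since fewer genes were tested. With each tumour left out in turn, 3 to 4 members were called in 4T07, 4 to 5 in D2A1, 5 to 6 in EMT6, 4 in the average of lines and 3 to 6 in the difference between lines. Over all genes these fits called 3698 to 7727 in 4T07, 2444 to 5051 in D2A1 and 5084 to 6984 in EMT6. Calls over all genes under the alternatives are not given for the joint fits. The member counts include Ogn, Aspn and Dcn, which led to the choice of the family, so nothing is read from them. The reversals were of values that had not passed. Lum in D2A1 was at 0.093 without the block and between -1.19 and 0.26 with a tumour left out (0.26 without tumour 4). Lum in the average of lines, 0.03 as reported, was at -0.055 with scaling by totals, -0.032 with DESeq2 and between -0.16 and 0.32 with a tumour left out (-0.02 and -0.12 without tumours 3 and 4 of 4T07, -0.05 and -0.16 without tumours 1 and 3 of D2A1, and -0.09 without tumour 2 of EMT6). Chst12 in 4T07 was at -0.061 with scaling by totals, and Tlr2 in EMT6 was between -0.017 (without tumour 0) and 0.11 with a tumour left out. The causes were not tested. Scaling by totals moved the median of all 4T07 genes to -0.14. Calls over all genes in 4T07 numbered 5868, and 3698 without tumour 1. In D2A1 they numbered 3794, and 2444 without tumour 1 and 2534 without tumour 4. Depth is least in D2A1, whose shallowest negative library held 1335433 reads.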

Other observations

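In EMT6 the mean level of Ogn was of the order of the main collagen chains on the scale of CPM per kilobase, though under them in plain CPM. In p27K negative cells Ogn was at 170.0 ± 50.1 (SD, n = 4), beside 199 ± 37.1 for Col1a1 and 312 ± 34.0 for Col1a2. In p27K high cells Ogn was at 405 ± 112, beside 226 ± 40.7 for Col1a1 and 384 ± 46.2 for Col1a2. That scale divides by all annotated exons of a gene, 2566 bases for Ogn, 6563 for Col1a1 and 12426 for Col1a2. In plain CPM the means of Ogn, Col1a1 and Col1a2 were 436, 1307 and 3874 in negative cells. In high cells they were 1039, 1482 and 4773 CPM. Per kilobase, the 4T07 level of Dcn was 45.3 ± 16.4 in negative and 195 ± 69.2 in high cells. It stood beside 4.20 ± 2.24 and 3.19 ± 1.30 for Col1a1 and 0.883 ± 0.657 and 0.383 ± 0.263 for Col1a2. In D2A1 the Aspn level went from 6.98 ± 4.78 to 51.2 ± 31.4, while Col1a1 went from 26.97 ± 6.60 to 10.6 ± 3.39 and Col1a2 from 10.2 ± 1.04 to 0.869 ± 0.806.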
